A study of Mus musculus with 36 samples.

Results

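The contractile genes of smooth muscle cells and myofibroblasts were followed in the kidneys of 2 mouse models of polycystic kidney disease. The 10 genes were taken by name, Acta2, Tagln, Actg2, Cnn1, Myh11, Des, Csrp1, Myl9, Lmod1 and Pdlim7, and all 10 were found among the 20458 gene symbols that could be paired with a RefSeq identifier of the count table. Where several identifiers belonged to a gene, that of the highest mean count stood for it. Kidneys of Pkd1f/f:HoxB7-Cre and Pkd2f/f:HoxB7-Cre mice (knockout, KO) were compared with those of Pkd1f/f and Pkd2f/f mice (wild type, WT) on a C57BL/6 background, 1, 3 and 7 days after birth (P1, P3 and P7). Each of the 12 groups had 3 libraries, 36 in all, made from the total RNA of kidney tissue. The WT mice, littermates per the study's methods, carried the same floxed alleles without the Cre transgene. The HoxB7-Cre transgene removes the floxed exons in the collecting duct and the tissues that share its origin, so stromal and smooth muscle cells of these kidneys keep the gene. The libraries hold every cell type of the kidney, and fewer cells of a type and less RNA per cell cannot be told apart in them.

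Smooth muscle cells contract when myosin filaments pull on a network of actin filaments, and the cells keep this apparatus by making dedicated isoforms of actin, myosin and their binding proteins. In the kidney such cells form the wall of arteries and the muscle layer of the renal pelvis and ureter, whereas fibroblasts and pericytes next to damaged tubules can become myofibroblasts, which make alpha smooth muscle actin and deposit matrix. Most of these genes are transcribed under serum response factor (Srf), which binds a short element called the CArG box together with the cofactors myocardin (Myocd) and the myocardin-related factors (Mrtfa, Mrtfb). Acta2 encodes alpha smooth muscle actin, Actg2 the gamma smooth muscle actin typical of visceral muscle, Myh11 the smooth muscle myosin heavy chain and Myl9 its regulatory light chain. Tagln (SM22 alpha), Cnn1 (calponin 1) and Lmod1 (leiomodin 1) encode proteins that bind or nucleate actin filaments, Des the intermediate filament protein desmin, and Csrp1 and Pdlim7 are LIM domain proteins of the actin cytoskeleton.

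Because the genes share this regulation, the stretch around their transcription start was searched for the CArG box, whose consensus is palindromic, so that a match holds on both strands. Of the 10 genes, 7 had a RefSeq promoter window of GRCm38.p6, which covers 250 bases before and 50 bases after the start, while Tagln, Actg2 and Myh11 had none. The full 10-letter consensus was present in the window of Myl9, against 1.63% of the 32851 windows of all genes. With 1 letter off allowed, a box was found in 3 of the 8 windows of the 7 genes, against 21.1% of all windows. The 3 were those of Acta2, Myl9 and Lmod1, and Csrp1 had 2 windows without a match. The matches are shown with 10 bases on either side on the strand of the gene, with the box in capitals, to let the degree of match be seen. The coordinates are those of GRCm38.p6 and cover the printed stretch. A longer transcript of Acta2 in the annotation starts upstream, so its matches also lie in the untranslated first part of that transcript.
Acta2, chr19:34255438-34255467, minus strand, 1 letter off, 84 bases before the start: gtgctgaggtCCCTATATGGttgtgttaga
Acta2, chr19:34255388-34255417, minus strand, 1 letter off, 34 bases before the start: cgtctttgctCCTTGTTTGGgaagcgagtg
Myl9, chr2:156775293-156775322, plus strand, full match, 161 bases before the start: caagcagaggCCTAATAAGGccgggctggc
Myl9, chr2:156775355-156775384, plus strand, 1 letter off, 99 bases before the start: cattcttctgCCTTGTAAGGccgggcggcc
Lmod1, chr1:135324614-135324643, plus strand, 1 letter off, 189 bases before the start: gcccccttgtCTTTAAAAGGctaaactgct
Lmod1, chr1:135324639-135324668, plus strand, 1 letter off, 164 bases before the start: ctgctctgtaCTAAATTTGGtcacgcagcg
A match of letters is a description of the sequence, and binding of Srf was not measured.

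Values are counts per 1000000 counted reads (CPM), the deposited read counts divided by library size and edgeR's TMM factors over the 36 libraries. KO and WT were compared on the raw counts with edgeR's quasi-likelihood test, adjusted over all transcripts that reached 10 counts in 3 or more of a model's 18 libraries, and a change was called at an adjusted p under 0.05. The test could be made for 9 of the 10 genes, each of which had 16 or more counts in every library. Myh11 had between 0 and 5 counts in each of the 36 libraries and was not tested. Genes with several identifiers were often close to 0 in this table, with 49.0% of them under a mean of 1 count against 25.9% of the genes with 1 identifier, so the value of Myh11, which has several, was not read as absence of the myosin.

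Between 7179152 and 15850818 reads were counted per library, with a median of 13143336. The deleted gene gave little check of the labels, since the Pkd1 transcript differed by 0.10 ± 0.11 (log2 fold change ± SE) in Pkd1 KO kidneys at P7, which was not called, and the Pkd2 transcript by -0.29 ± 0.05 in Pkd2 KO kidneys at P7 (adjusted p = 0.0115 in edgeR's test). Markers of the adrenal cortex summed to 1566 CPM in the Pkd1 P7 KO 1 library, 1337 CPM in Pkd2 P7 KO 3 and 4904 CPM in Pkd2 P3 WT 2, and to between 8.21 and 35.3 CPM in the other 33 libraries. The Pkd2 P3 WT 2 library also had the highest sums of striated muscle markers (134 CPM) and of capsule and adventitia markers (503 CPM). Y-linked transcripts were present in all 3 Pkd1 P7 KO libraries and in 0 of the 3 WT libraries, so genotype and sex cannot be told apart in that comparison alone. At P7 in the Pkd2 model they were present in all 3 KO libraries and in 2 of the 3 WT libraries.

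At P7 the contractile genes were higher in the cystic kidneys of both models. In the Pkd1 model 8 of the 9 tested genes rose, against 6.32% of all tested transcripts, and Csrp1 was not called. In the Pkd2 model all 9 tested genes rose, against 7.88%. The median log2 fold change of the 9 genes was 1.42 in Pkd1 KO and 1.47 in Pkd2 KO kidneys, beside medians of 0.0014 and 0.000437 over all tested transcripts. The summed level of the 10 genes was 6217, 6296 and 6582 CPM in the Pkd1 KO libraries ordered by size and 2556, 2596 and 2924 CPM in WT, and in the Pkd2 model 6378, 6394 and 7027 CPM in KO and 2309, 2354 and 2484 CPM in WT.

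**Figure D1:**
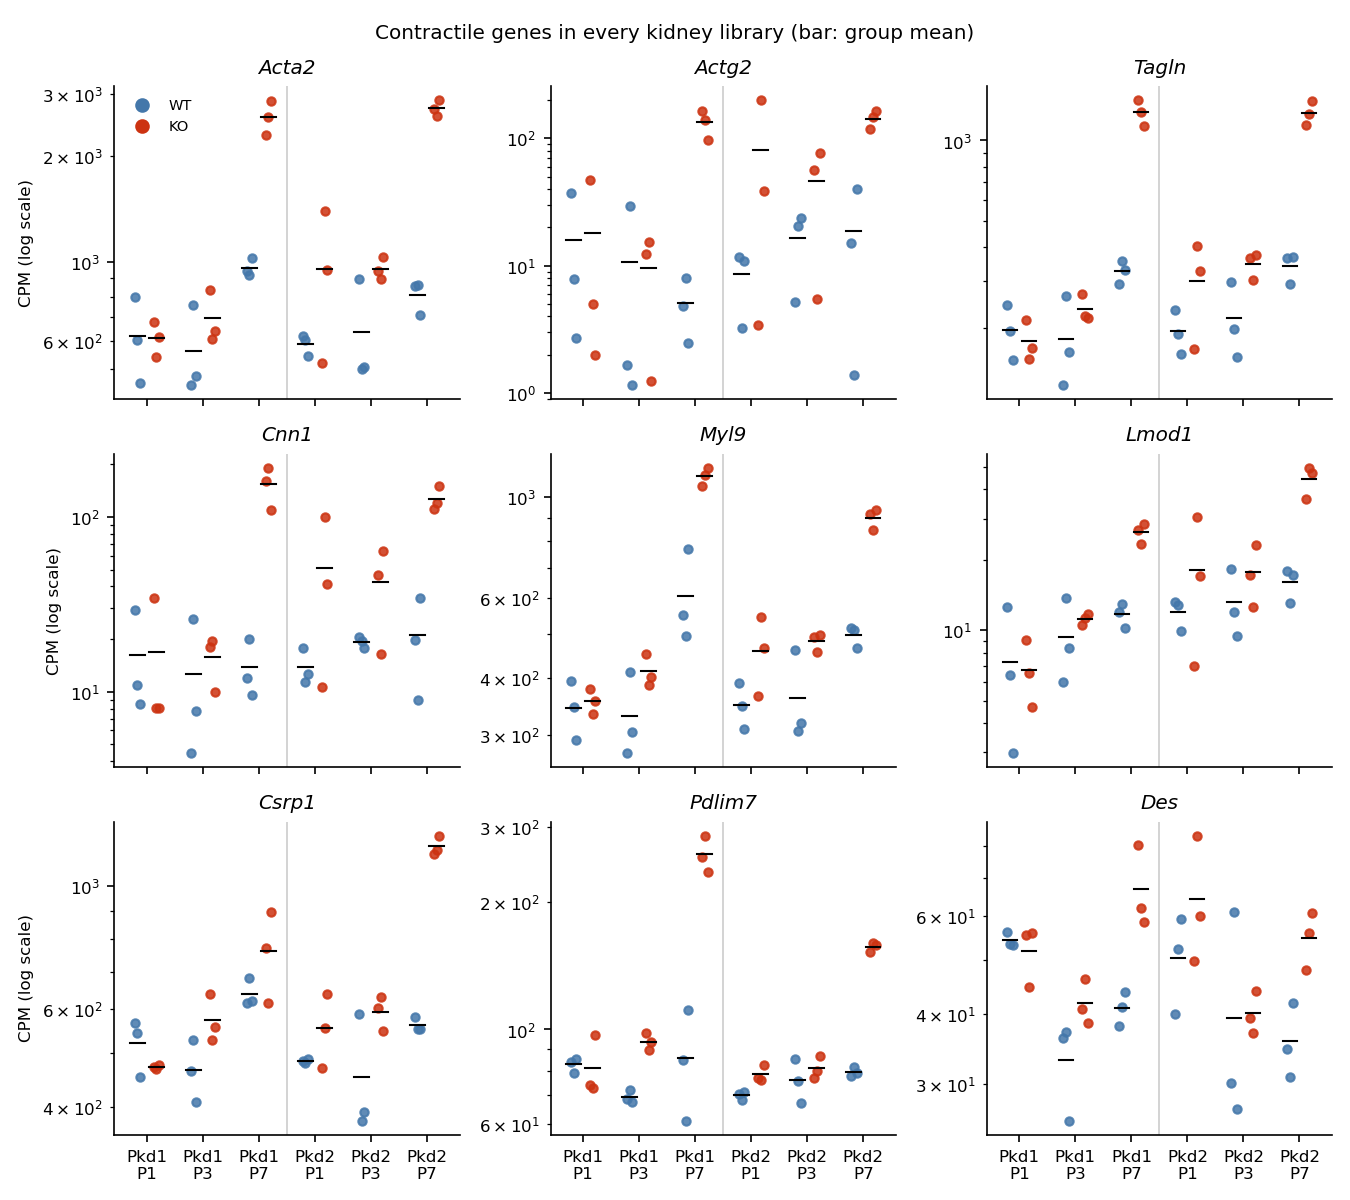
Levels of the 9 tested genes in the 36 libraries, in CPM on a log axis, by model and postnatal day, with 1 point per library (blue, WT, and red, KO) and a bar at the group mean. The P7 KO points of Acta2 lie between 2286 and 2874 CPM, above every other library of that gene.

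Among the 10 genes, Acta2 had the highest CPM in the P7 kidneys of both models. Its level at P7 was 2286, 2579 and 2863 CPM in Pkd1 KO kidneys and 946, 921 and 1026 CPM in WT. Pkd2 kidneys had 2710, 2594 and 2874 CPM in KO and 859, 862 and 710 CPM in WT. All 6 KO libraries thus stood above all 6 WT libraries by a wide margin. The log2 fold change of Acta2 was 1.42 ± 0.13 in Pkd1 KO (2.67-fold, adjusted p = 0.00242 in edgeR's test) and 1.75 ± 0.10 in Pkd2 KO (3.37-fold, adjusted p = 0.00023).

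Actg2 showed the largest fold changes of the 9 genes in both models. It was at 164, 141 and 97.7 CPM in Pkd1 P7 KO kidneys and at 4.80, 8.09 and 2.49 CPM in WT. The corresponding levels were 120, 147 and 164 CPM in Pkd2 KO and 15.1, 1.39 and 39.9 CPM in WT. The WT libraries of the Pkd2 model were therefore spread over a wide range, and the groups still did not overlap. The log2 fold change was 4.70 ± 0.39 (26.0-fold, adjusted p = 0.00145 in edgeR's test) in Pkd1 and 2.96 ± 0.76 (7.77-fold, adjusted p = 0.0383) in Pkd2, and the Pkd2 call was lost when KO replicate 1, 2 or 3 or WT replicate 1 was left out (adjusted p between 0.073 and 0.147). The call was kept without WT replicate 2 or 3, with log2 fold changes within 2.40 to 4.14 over all leave-outs. It was also lost in the fit of all 18 Pkd2 libraries without a covariate.

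Myl9, the light chain whose phosphorylation starts contraction, was at 1059, 1118 and 1160 CPM in Pkd1 P7 KO and at 552, 496 and 771 CPM in WT kidneys. It was at 921, 849 and 936 CPM in Pkd2 KO and at 517, 511 and 466 CPM in WT. No WT library reached the lowest KO library in either model. Its log2 fold change was 0.88 ± 0.17 in Pkd1 (adjusted p = 0.0191 in edgeR's test) and 0.86 ± 0.07 in Pkd2 (adjusted p = 0.000601). The Pkd1 call was lost without KO replicate 1, KO replicate 2 or WT replicate 1, with adjusted p between 0.0566 and 0.0934.

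Among the actin-binding proteins, Tagln was at 1412, 1282 and 1131 CPM in Pkd1 P7 KO kidneys and at 292, 355 and 330 CPM in WT. Pkd2 kidneys had 1139, 1258 and 1408 CPM in KO and 364, 293 and 369 CPM in WT. The lowest KO library lay well above the highest WT library in both models. The log2 fold change was 1.97 ± 0.14 in Pkd1 (3.93-fold, adjusted p = 0.000583 in edgeR's test) and 1.90 ± 0.11 in Pkd2 (3.72-fold, adjusted p = 0.00023).

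Cnn1, which inhibits the myosin ATPase on actin filaments and marks mature smooth muscle, was at 161, 190 and 110.0 CPM in Pkd1 P7 KO and at 12.03, 20.1 and 9.60 CPM in WT kidneys. Its Pkd2 levels were 112, 120.3 and 150 CPM in KO and 19.8, 8.95 and 34.5 CPM in WT. All 6 KO libraries were above 100 CPM and all 6 WT libraries far below. Cnn1 rose 11.04-fold in Pkd1 (3.46 ± 0.31 on the log2 scale, adjusted p = 0.00198 in edgeR's test) and 6.09-fold in Pkd2 (2.61 ± 0.39, adjusted p = 0.00593).

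Lmod1, which nucleates actin filaments, was a gene of low level with the same pattern. Its level was 26.7, 23.3 and 28.5 CPM in Pkd1 P7 KO and 11.96, 12.9 and 10.3 CPM in WT kidneys, and in the Pkd2 model 36.3, 49.3 and 47.1 CPM in KO and 17.96, 13.0 and 17.2 CPM in WT. The groups did not overlap in either model. The log2 fold change was 1.16 ± 0.17 in Pkd1 (adjusted p = 0.0105 in edgeR's test, 0.0529 without WT replicate 1) and 1.47 ± 0.16 in Pkd2 (adjusted p = 0.00164).

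Des, the intermediate filament of muscle, mesangial cells and pericytes, had the smallest fold changes among the genes that rose in both models. It was at 80.2, 62.1 and 58.6 CPM in Pkd1 P7 KO kidneys and at 38.0, 41.3 and 43.9 CPM in WT. In Pkd2 its level was 48.0, 55.8 and 60.6 CPM in KO and 34.7, 30.9 and 41.8 CPM in WT. KO lay above WT without overlap in both models, though the gap was small. The log2 fold change was 0.71 ± 0.15 in Pkd1 (adjusted p = 0.0236 in edgeR's test) and 0.62 ± 0.13 in Pkd2 (adjusted p = 0.0191). The call was lost without KO replicate 1, KO replicate 2 or WT replicate 1 in Pkd1 (adjusted p between 0.0721 and 0.105) and without KO replicate 2, KO replicate 3 or WT replicate 1 in Pkd2 (adjusted p between 0.0688 and 0.0789). The Pkd2 call of Des was also lost in the fit of all 18 Pkd2 libraries.

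For the LIM domain proteins the order of the 2 models was opposite. Pdlim7 has 3 identifiers, and 100% of its counts fell on 1 of them, with a mean of 1331 counts. The values of Pdlim7 here and elsewhere are those of that identifier, so they are uncertain for the other transcripts of the gene. Pdlim7 was at 256, 286 and 235 CPM in Pkd1 KO and at 84.7, 61.0 and 111 CPM in WT kidneys. In the Pkd2 model it was at 152, 160 and 158 CPM in KO and at 77.6, 81.8 and 79.0 CPM in WT. The log2 fold change was 1.60 ± 0.21 in Pkd1 (3.02-fold, adjusted p = 0.00703 in edgeR's test) and 0.98 ± 0.05 in Pkd2 (1.98-fold, adjusted p = 0.00023). Csrp1, a cofactor of Srf in smooth muscle, had its larger difference in the Pkd2 model. Its level was 773, 615 and 898 CPM in Pkd1 KO and 614, 681 and 620 CPM in WT, so that the groups overlapped. In the Pkd2 model it was 1141, 1161 and 1229 CPM in KO and 579, 552 and 552 CPM in WT, well apart. In edgeR's test Csrp1 rose in Pkd2 by 1.07 ± 0.06 on the log2 scale (adjusted p = 0.00023), while the difference in Pkd1 was 0.26 ± 0.15 (adjusted p = 0.265).

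An interaction fitted over the 12 P7 libraries tested whether the P7 effect differed by model. None of the 9 genes was called in edgeR's quasi-likelihood test, as was none of all transcripts (0%), and 2 of the 9 had an unadjusted p under 0.05, against 17.2% of all transcripts. The difference, Pkd1 minus Pkd2, was -0.81 ± 0.16 for Csrp1 (adjusted p = 0.108), 0.62 ± 0.23 for Pdlim7 (adjusted p = 0.209) and 1.76 ± 0.99 for Actg2 (adjusted p = 0.377). DESeq2 called 1 of the 9, Csrp1 (adjusted p = 0.000935), against 3.32% of all transcripts. In edgeR's test Csrp1 was called without Pkd1 KO replicate 3 (adjusted p = 0.0466), and both Csrp1 and Pdlim7 without Pkd1 WT replicate 3 (adjusted p = 0.0161 and 0.0143).

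**Figure D2:**
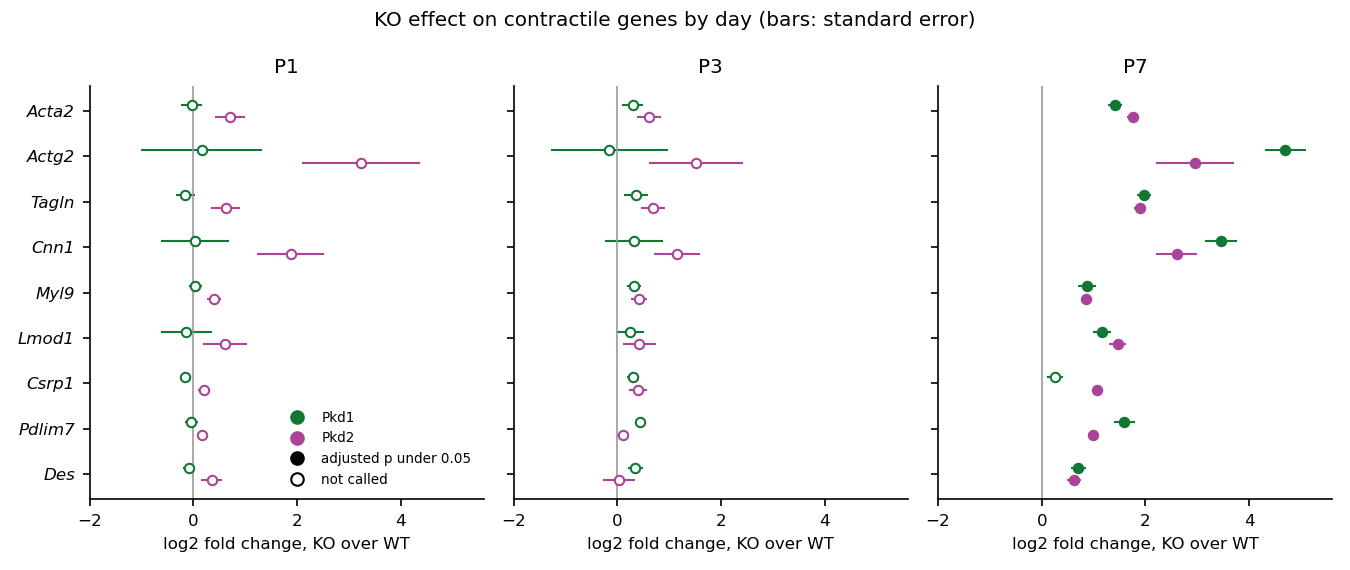
Log2 fold change of KO against WT for the 9 tested genes at P1, P3 and P7 in both models, with bars of 1 SE from edgeR's quasi-likelihood test and filled symbols for an adjusted p under 0.05. The filled symbols are all at P7, and Csrp1 of the Pkd1 model is the open one at that age.

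With both models in one fit at P7, which has 6 KO and 6 WT libraries, all 9 tested genes rose, against 14.8% of all tested transcripts. The log2 fold changes in this fit were 1.58 for Acta2, 1.93 for Tagln, 3.76 for Actg2, 3.02 for Cnn1, 0.66 for Des, 0.66 for Csrp1, 0.86 for Myl9, 1.31 for Lmod1 and 1.29 for Pdlim7. All 9 were also called in a fit with a term for whether a library held Y-linked counts, where 4.83% of all transcripts were called in either direction. That term differs from genotype only in Pkd2 WT replicates 1 and 2, and the fit takes the KO effect as the same in both models. It therefore cannot separate sex from genotype in the Pkd1 model. All 9 were called as well without the 2 P7 KO libraries that hold adrenal counts (17.8%), an alternative chosen after seeing the data. In the Pkd1 model alone, a fit of all 18 libraries with this Y-linked term called 0 of the 9 genes and 6 of all transcripts, and 6 of the 9 had an unadjusted p under 0.05, against 13.9% of all transcripts. In that fit the log2 fold change was 1.35 for Acta2, 1.94 for Tagln, 0.66 for Des, 0.88 for Myl9, 0.88 for Lmod1 and 1.48 for Pdlim7. For Actg2 it was 3.34 in place of 4.70 and for Cnn1 2.66 in place of 3.46. In the Pkd2 model the 5 P7 libraries with Y-linked counts, which leave out WT replicate 3, gave 9 calls of 9. In that fit 2059 of all 12633 transcripts were called in either direction. A fit of all 18 Pkd2 libraries with the Y-linked term called 8 of the 9 genes at P7, without Des, against 12.2% of all transcripts. The DESeq2 counts at P7 were 8 of 9 genes in Pkd1 and 9 of 9 in Pkd2, against 22.1% and 17.8% of all transcripts in either direction.

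The groups at P7 can also be compared without a test. KO lay above WT without overlap for 8 of the 9 genes in Pkd1, against 19.6% of all tested transcripts, and for all 9 in Pkd2, against 18.8%. Across the whole series, all 6 P7 KO libraries stood above each of the other 30 libraries for 5 genes, Acta2, Tagln, Cnn1, Myl9 and Pdlim7, against 1.53% of the 12343 transcripts tested in both models. For Actg2 the Pkd2 P1 KO 2 library, at 200 CPM, was above all P7 KO libraries.

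Per length of transcript, the order of levels could be set across genes. In Pkd1 WT kidneys at P7 the mean was 538 ± 129 RPKM (CPM per kilobase of transcript, ± SD, n = 3) for Myl9, 474 ± 27.1 for Acta2, 350 ± 20.3 for Csrp1 and 204 ± 19.9 for Tagln. These were followed by Pdlim7 at 50.5 ± 14.9 RPKM, Des at 13.6 ± 0.969, Cnn1 at 5.84 ± 2.31, Actg2 at 3.85 ± 2.11 and Lmod1 at 2.97 ± 0.34. Myl9 and Acta2 were within their spread of each other, and Actg2 was within the spread of both Cnn1 and Lmod1. Cnn1 and Lmod1 were not within their spread of each other. In Pkd1 KO kidneys at P7 the order began with Acta2 at 1266 ± 142 RPKM, Myl9 at 986 ± 45.0 and Tagln at 800 ± 88.1. Csrp1 followed at 418 ± 77.7, Pdlim7 at 152 ± 15.3, Actg2 at 101 ± 25.2, Cnn1 at 64.5 ± 17.1, Des at 22.1 ± 3.83 and Lmod1 at 6.63 ± 0.666. Actg2 and Cnn1 were within their spread of each other in the Pkd1 KO kidneys, where both stood above Des, and below Des in Pkd1 WT. In Pkd2 WT kidneys at P7 Actg2, at 14.1 ± 14.6 RPKM, and Des, at 11.8 ± 1.83, were within their spread of each other. Pkd2 KO kidneys had 108 ± 16.7 RPKM of Actg2 and 92.4 ± 2.29 of Pdlim7, within their spread, and 18.1 ± 2.11 of Des.

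At P1 and P3 the picture differed. In the Pkd1 model at P1 edgeR's test called 0 of the 9 genes, as of all transcripts (0%), with 0 of the 9 at an unadjusted p under 0.05 (1.25% of all transcripts) and 0 calls among them by DESeq2 (0.016% of all) and by edgeR's exact test (0.0239%). The median log2 fold change of the 9 genes was -0.0413 beside -0.00123 over all transcripts, and no gene had KO above WT without overlap, against 3.50% of all transcripts. Acta2, for instance, was at 678, 539 and 615 CPM in KO and at 798, 604 and 455 CPM in WT. At this age same-numbered Pkd1 KO and WT libraries deviated together from their group means (correlations 0.39, 0.259 and 0.578), though the labels name no pairs. A fit with the replicate number as a block also called none of the 9, beside 4 of all 12527 transcripts.

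At P3 in the Pkd1 model 0 of the 9 genes were called by edgeR's quasi-likelihood test, against 0.00798% of all transcripts, and 3 of the 9 had an unadjusted p under 0.05, against 14% of all. Pdlim7 was at 97.9, 89.4 and 93.4 CPM in KO and at 68.8, 72.0 and 67.4 CPM in WT, with no overlap. Its log2 fold change was 0.43 ± 0.06 (adjusted p = 0.152 in edgeR's quasi-likelihood test), and it was the 1 of the 9 genes called by DESeq2 (adjusted p = 0.00173, 1.98% of all transcripts called) and by edgeR's exact test (adjusted p = 0.00107, 1.67% called). Des was the other gene with KO above WT, at 40.9, 46.2 and 38.6 CPM against 36.2, 37.2 and 25.8 CPM, so that 2 of the 9 genes did not overlap, against 10.4% of all transcripts. The median of the 9 log2 fold changes was 0.316, beside -0.00213 over all transcripts.

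In the Pkd2 model 0 of the 9 genes were called at P1 (0% of all transcripts) and 0 at P3 (0%) in edgeR's quasi-likelihood test, whereas 5 and 4 had an unadjusted p under 0.05, against 5.6% and 4.47% of all transcripts. DESeq2 called none of the 9 at P1 (0.261% of all) or P3 (0.301%), nor did edgeR's exact test (0.237% and 0.142%). All 9 log2 fold changes were positive at both ages. Their median was 0.613 at P1 and 0.42 at P3, beside 0.0017 and -0.00907 over all transcripts. KO stood above WT without overlap for 1 gene at P1, Pdlim7, against 5.52% of all transcripts, and for 1 gene at P3, Tagln, against 4.62%. With both models in one fit, edgeR's quasi-likelihood test called 0 of the 9 at P1 (0% of all transcripts) and 0 at P3 (0.0325%). In that test 0 and 5 had an unadjusted p under 0.05, against 2.88% and 7.23% of all transcripts. DESeq2 also called 0 of the 9 at P1 (0.0163% of all) and 0 at P3 (0.48%).

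The 3 Pkd2 P1 KO libraries were spread widely. Actg2 was at 3.42, 200 and 38.4 CPM in the 3 Pkd2 P1 KO libraries and at 11.8, 3.24 and 10.9 CPM in WT. Cnn1 was at 10.6, 101 and 41.4 CPM in KO and 17.8, 11.3 and 12.6 CPM in WT. Acta2 was at 518, 1396 and 950 CPM in KO and 619, 603 and 543 CPM in WT. The second KO library was the highest of the group for each of these, and the first was within or below the WT range. The 5 genes at an unadjusted p under 0.05 became 9 without KO replicate 1, 1 without KO replicate 2 and 0 without WT replicate 2. Of all 12633 transcripts, 889, 465 and 385 had such a p in those fits.

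This library also had the highest level of urothelium markers, genes of the epithelium that lines the renal pelvis and ureter. The summed level of the 7 markers (uroplakins Upk1a, Upk1b, Upk2, Upk3a and Upk3b, with Krt5 and Trp63) was 580 CPM there and between 131 and 580 CPM in the Pkd2 P1 KO group, against 68.0 to 165 CPM in WT. Over the 30 libraries other than P7 KO, the Pearson correlation of log2(CPM + 0.5) with the log2 of that sum was 0.884 for Actg2 and 0.828 for Cnn1, 0.506 for Lmod1, 0.487 for Des and 0.379 for Tagln. It was 0.283 for Acta2, 0.0983 for Csrp1, 0.0955 for Myl9 and -0.224 for Pdlim7. These points share their group means and library sizes, and the values are a description.

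**Figure D3:**
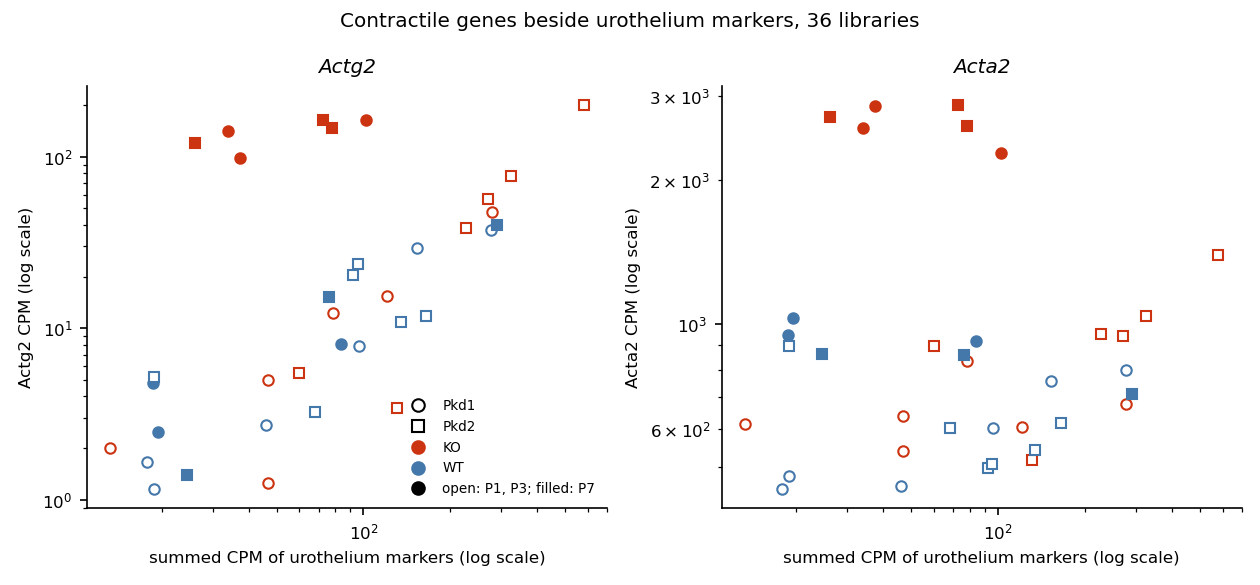
CPM of Actg2 and Acta2 against the summed CPM of the urothelium markers, both on log axes, with 1 point per library, circles for Pkd1, squares for Pkd2, red for KO, blue for WT and filled symbols for P7. Over the other 30 libraries Actg2 follows the sum (r = 0.884) and Acta2 much less (r = 0.283), and the P7 KO points lie above other libraries of like sums, at sums of 26.1 to 102 CPM.

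At P7 the urothelium sum did not separate the groups. It was 102, 33.9 and 37.3 CPM in Pkd1 KO and 18.6, 83.9 and 19.5 CPM in WT, and 26.1, 78.1 and 72.5 CPM in Pkd2 KO and 76.0, 24.6 and 290 CPM in WT. The Pkd2 P7 WT 3 library, with the sum of 290 CPM, was the WT library with the most Actg2 and Cnn1. With the P7 KO libraries included, the correlation over 36 libraries was 0.545 for Actg2 and -0.0318 for Acta2. Upk3b was the 1 marker of 6 tested that rose in Pkd1 KO in edgeR's test, by 1.73 ± 0.44 on the log2 scale (adjusted p = 0.0395), and 0 of 6 were called in Pkd2. Over all tested transcripts 6.32% rose in Pkd1, and 14.1% were called in either direction in Pkd2. Markers of the ureteric mesenchyme, the precursor of ureter muscle, summed to 97.8 to 113 CPM in Pkd1 P7 KO and 99.2 to 168 CPM in WT, and to 94.0 to 110 CPM in Pkd2 P7 KO and 110 to 122 CPM in WT. Among them Ptch1, the Hedgehog receptor, fell in both models, by 2.57 on the log2 scale in Pkd1 and by 0.51 in Pkd2.

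The P7 effect was compared with that at P1 within each model. In Pkd1 the KO effect on 6 of the 9 genes was larger at P7, against 3.66% of all transcripts. The difference was 2.12 ± 0.32 on the log2 scale for Tagln (adjusted p = 0.00186 in edgeR's interaction test) and 1.63 ± 0.23 for Pdlim7 (adjusted p = 0.000992). For Actg2 it was 4.54 ± 1.68 and was not called (adjusted p = 0.0988). In Pkd2 the effect on 2 of the 9 was larger at P7, against 1.12%. These were Pdlim7, with a difference of 0.82 ± 0.11 (adjusted p = 0.00147), and Csrp1, with 0.87 ± 0.19 (adjusted p = 0.0314). For Tagln the Pkd2 difference was 1.27 ± 0.37 (adjusted p = 0.113) and for Acta2 1.05 ± 0.37 (adjusted p = 0.186). The Pkd1 count was 3 without P1 KO replicate 2, P1 WT replicate 1, P7 KO replicate 1, P7 KO replicate 2 or P7 WT replicate 1. The Pkd2 count was 1, Pdlim7, in each fit without 1 library except those without P1 KO replicate 3, P1 WT replicate 1 or P7 KO replicate 1, where it was 2. With a term for Y-linked counts in the fit, the number called was 0 in Pkd1 and 1, Pdlim7, in Pkd2. Of all transcripts 0% and 0.902% were called in those fits.

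In the WT kidneys 3 of the 9 genes rose from P1 to P7 in the Pkd1 model, against 12.6% of all transcripts, and 2 in the Pkd2 model, against 13.1%. Myl9 rose by 0.81 ± 0.16 on the log2 scale in Pkd1f/f (adjusted p = 0.00178 in edgeR's test) and by 0.51 ± 0.15 in Pkd2f/f kidneys (adjusted p = 0.0173). Tagln rose by 0.72 ± 0.22 and 0.81 ± 0.26 (adjusted p = 0.0259 and 0.0324). Acta2 rose in Pkd1f/f by 0.64 ± 0.20 (adjusted p = 0.0306), and its difference in Pkd2f/f was 0.46 ± 0.26 (adjusted p = 0.212). In Pkd1f/f the count was 1 without P1 WT replicate 2, P1 WT replicate 3 or P7 WT replicate 3. In Pkd2f/f it was 0 without P1 WT replicate 2, P1 WT replicate 3 or P7 WT replicate 1, and 1 without P7 WT replicate 2 or 3. Y-linked counts were present in 2 of 3 P1 and 0 of 3 P7 libraries of Pkd1f/f, and with a term for them 0 of the 9 genes were called in Pkd1f/f and 1, Myl9, in Pkd2f/f, against 8.08% and 24.9% of all transcripts in either direction.

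The genes varied together to different degrees. Over the 36 libraries, Pearson's r of log2 CPM was 0.978 for Acta2 and Tagln, 0.964 for Acta2 and Myl9, and 0.948 for Actg2 and Cnn1. After the mean of each of the 12 groups was taken off, r was 0.85, 0.871 and 0.932 for these pairs. Lmod1 kept an r of 0.862 with Tagln. Pdlim7 had an r of 0.842 with Acta2 over all libraries but 0.215 within groups, and Des had 0.423 and 0.141. Within the 12 groups Pdlim7 had an r of -0.204 with Actg2.

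Of the regulators of these genes, Srf was detected in every library, with 762 to 2135 counts, and had log2 fold changes at P7 of 0.40 ± 0.12 in Pkd1 (adjusted p = 0.0639 in edgeR's test) and 0.30 ± 0.09 in Pkd2 (adjusted p = 0.0575). With both models in one fit Srf rose by 0.35 ± 0.07 (adjusted p = 0.00492). Mrtfa, with 8 to 59 counts a library, had log2 fold changes of -1.19 ± 0.50 in Pkd1 and 0.34 ± 0.23 in Pkd2, neither of them called. These are the values of 1 of its 2 identifiers and so uncertain for the gene. Myocd and Mrtfb had between 0 and 4 counts in each library, and neither was tested.

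A longer list of smooth muscle genes was counted beside the 10. Of the 26 listed, 5 of 22 tested rose and 1 fell in Pkd1 P7 KO kidneys (median log2 fold change 0.292), and 8 of 23 rose and 0 fell in Pkd2 (median 0.332). Over all tested transcripts, 6.32% were called higher and 7.14% lower in Pkd1 at P7, and 7.88% and 6.17% in Pkd2. The same shares stand beside the P7 counts of the other companion lists. Nexn, which encodes the actin-binding protein nexilin, was at 81.0, 102 and 80.3 CPM in Pkd1 KO and 32.6, 44.1 and 39.4 CPM in WT, and at 77.8, 76.8 and 84.4 CPM in Pkd2 KO and 41.1, 42.8 and 44.3 CPM in WT. KO and WT did not overlap in either model, and the log2 fold changes of Nexn were 1.18 ± 0.15 and 0.90 ± 0.07 (adjusted p = 0.00703 and 0.000523 in edgeR's test). The tropomyosin Tpm2 rose by 1.07 and 0.68 on the log2 scale and the alpha-actinin Actn1 by 0.55 and 0.91. Tpm2 has 3 identifiers and the identifier used a mean of 286 counts, so its values are uncertain for the gene. Casq2, a calcium store protein of muscle, rose in Pkd1 by 1.99 ± 0.55, with 0.20 ± 0.95 in Pkd2. The 1 gene that fell was the integrin Itga8, in Pkd1 by 0.72, named after its value was seen.

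Actomyosin genes that most cells use were counted in the same way. Of 11 tested, 3 rose in Pkd1 (median log2 fold change 0.353) and 8 in Pkd2 (median 0.391), and none fell. Actb, the cytoplasmic beta actin, rose by 0.82 and 0.42 on the log2 scale and the tropomyosin Tpm4 by 0.71 and 0.64 in Pkd1 and Pkd2. Tagln2 and Myl12a, the relatives of Tagln and Myl9 outside muscle, rose in Pkd2 by 0.93 and 0.60 and had log2 fold changes of 0.35 and 0.24 in Pkd1, where neither was called. Whether the counts differ between the models was not tested.

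**Figure D4:**
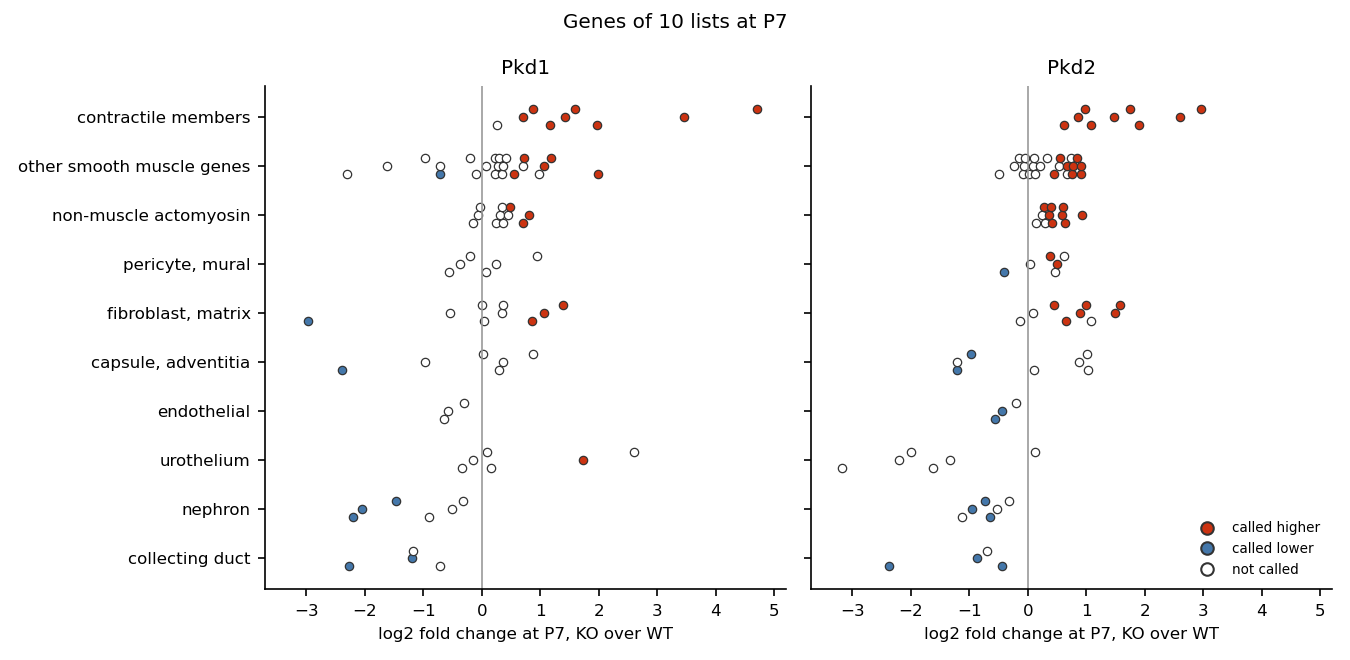
Log2 fold change at P7 of each tested gene of the contractile genes and of the companion marker lists, in both models, with red points for genes called higher, blue points for genes called lower at an adjusted p under 0.05 in edgeR's test and open points for the rest. The points of the contractile genes all lie right of 0, with medians of 1.42 and 1.47, and those of the endothelial, nephron and collecting duct lists all lie left of it.

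Markers of the cell types that could hold this apparatus were mixed. Several listed markers had mean counts under 10 and were not tested, so the lists do not cover them. These were Pdgfrb, Abcc9 and Ren1 of the pericyte and mural list and Pdgfra, Postn and Sparc of the fibroblast and matrix list. Of the pericyte and mural markers, 0 of 6 tested were called in Pkd1 (median log2 fold change -0.0668), while in Pkd2 Cspg4 and Mcam rose by 0.50 and 0.37, Kcnj8 fell by 0.40 and the median was 0.42. Their sum was 745 to 770 CPM in Pkd1 P7 KO and 651 to 824 CPM in WT, and 929 to 984 CPM in Pkd2 P7 KO and 756 to 827 CPM in WT. Of the fibroblast and matrix markers 3 of 9 rose and 1 fell in Pkd1 (median 0.34), and 6 of 9 rose in Pkd2 (median 0.891). Thy1, a surface protein of fibroblasts, was at 214, 191 and 151 CPM in Pkd1 KO and 62.6, 101 and 48.8 CPM in WT, and its log2 fold changes were 1.39 ± 0.26 and 1.57 ± 0.11 (adjusted p = 0.0171 and 0.000369 in edgeR's test). Loxl1, which crosslinks elastin, rose by 1.06 and 1.49. The identifier used for Fn1, fibronectin, fell in Pkd1 by 2.96 and rose in Pkd2 by 1.00, and the difference between the models was -3.95 ± 0.85 (adjusted p = 0.121 in edgeR's interaction test). The gene has 7 identifiers and this one a mean of 206 counts, so its values are uncertain for the gene. Col1a1, a chain of type I collagen, rose by 0.89 in Pkd2 and had 0.34 in Pkd1, not called. The part of these cell types in the rise of the contractile genes was not tested.

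Of the capsule and adventitia markers, 0 of 6 tested were called higher and 1 lower in Pkd1, with 4 positive log2 fold changes, a median of 0.16 and a highest value of 0.87. In Pkd2 0 of 7 were called higher and 2 lower, with 4 positive, a median of 0.111 and a highest value of 1.03. The genes called lower were Dcn in both models (-2.39 and -0.97 on the log2 scale), from 1 of its 2 identifiers and so uncertain, and Lum in Pkd2 (-1.21). Of the striated muscle markers 1 of 4 tested rose in each model. This was Actc1, the cardiac alpha actin, at 4.18, 3.36 and 5.33 CPM in Pkd1 KO and 0.278, 0.272 and 0.147 CPM in WT, and at 9.61, 6.65 and 5.204 CPM in Pkd2 KO and 0.902, 0.139 and 1.05 CPM in WT. Its log2 fold changes were 4.15 ± 0.44 and 3.37 ± 0.53 (adjusted p = 0.00404 and 0.00682 in edgeR's test). The other tested markers of striated muscle, Mylpf, Tnnc2 and Ckm, named after their values were seen, had log2 fold changes of 0.18, 0.23 and 1.17 in Pkd1 and -0.63, -0.79 and -0.61 in Pkd2, none of them called.

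No tested marker of endothelium, nephron or collecting duct was called higher at P7 in either model. Pecam1, Emcn and Tek of the endothelial list had mean counts under 10 and were not tested. The same held for Umod and Slc12a3 of the nephron list and Avpr2, Fxyd4 and Scnn1b of the collecting duct list. Of the endothelial markers 0 of 3 tested were called in Pkd1 and 2 fell in Pkd2, Flt1 by 0.56 and Kdr by 0.44. Nephron markers summed to 1575 to 2582 CPM in Pkd1 P7 KO kidneys and 4161 to 5100 CPM in WT, and 3 of 6 fell in each model. Collecting duct markers summed to 340 to 581 CPM in Pkd1 P7 KO and 1093 to 1286 CPM in WT, and to 528 to 633 CPM in Pkd2 P7 KO and 1078 to 1337 CPM in WT. Levels are shares of the counted reads of a kidney, so that lower epithelial shares go with higher shares of the rest, and their part in the values of the contractile genes was not tested.

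The 3 libraries with adrenal counts were set beside the others of their groups. In Pkd1 P7 KO 1, Acta2 at 2286 CPM was the lowest and Tagln at 1412 CPM the highest of its group. In Pkd2 P7 KO 3, both were the highest of the group, at 2874 and 1408 CPM. The Pkd2 P3 WT 2 library, with the largest adrenal sum, had 498 CPM of Acta2 and 199 CPM of Tagln, beside 898 and 507 CPM and 298 and 157 CPM in the other WT libraries of that age. It had 60.9 CPM of Des, beside 30.2 and 27.0 CPM in the other WT and 39.4, 37.1 and 43.9 CPM in the KO libraries of that age, and the log2 fold change of Des there was 0.03 ± 0.31. Without Pkd1 P7 KO 1, 6 of the 9 genes were called in Pkd1, beside 457 of all 12527 transcripts in either direction. Without Pkd2 P7 KO 3, 7 of the 9 were called in Pkd2, beside 904 of all 12633.

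The genes whose pattern was most like that of the 9 tested genes were found by the Pearson correlation of log2 CPM with their mean standardised level, over 12334 genes. Over the 36 libraries these were Sfn (r = 0.942), Bok (0.919), Msrb3 (0.919), Nexn (0.918), Npas4 (0.917), Lgals1 (0.916), Hspb1 (0.910) and Pdlim1 (0.908). After the group means were taken off they were Ckb (0.783), Nipal4 (0.760), Nexn (0.759), Pde5a (0.751), Sfn (0.748), Dkk3 (0.746), AA986860 (0.740) and Krt8 (0.732). Nexn and Sfn were named by both measures. The choice used the P7 libraries, so the KO difference of these genes at P7 is not given here as a result. That of Nexn is given above because Nexn also belongs to the longer list of smooth muscle genes.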

How the data were processed

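RNA-seq was analysed for 36 kidney libraries of the Pkd1 and Pkd2 models, 3 KO and 3 WT at P1, P3 and P7. The authors mapped reads to mm10 with TopHat2 2.1.0 after CASAVA 1.8.2, counted them with HTSeq (version not given in the sources used here) on RefSeq transcripts, and deposited the raw read counts. The whole series table holds 29996 identifiers, of which 28978 were paired with a symbol through RefSeq tables of GRCm38.p6, the assembly of mm10. Groups and replicate numbers come from the labels. The labels do not say that the 3 libraries of a group came from separate litters or batches, so p-values measure the spread between these libraries. The chi-square per transcript between replicates was 5.15 to 64.0 over 36 pairs, so the spread between libraries set the precision, not depth.

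The counts were analysed with edgeR 4.0.16 in R 4.3.3, with TMM factors, the quasi-likelihood test, Benjamini-Hochberg adjustment over 12527 (Pkd1) or 12633 (Pkd2) tested transcripts and an adjusted p under 0.05 without a minimum fold. SE is the log2 fold change over the square root of F. Interactions and fits of both models used the same steps. DESeq2 1.42.0, edgeR's exact test, RLE factors, no filter, a 2-fold minimum, GC content and length, a replicate block, a Y-linked covariate, one fit of all 18 libraries and fits without each library in turn were alternatives. RPKM was computed from the counts and the length of the GENCODE transcript matched to the RefSeq identifier. Where none was matched, the longest GENCODE transcript of the gene was used. Steps were tested on simulated data. Figures used Python 3.11.15 and matplotlib 3.10.9.

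The 10 genes, the companion lists and the tests were chosen with earlier results of these data known. The genes named are the 10, the regulators and deleted genes, up to 4 genes per companion list with the largest P7 change among those called, and the 8 most alike by each of 2 correlations. Any other is said to be named after its value was seen. Same-numbered KO and WT libraries deviated together in every pair in 1 of the 6 comparisons, Pkd1 at P1 (correlations 0.39, 0.259 and 0.578). Reads split between isoforms, paralogs (the actin genes) or overlapping genes are uncertain, as the table holds no record of shared reads. The strand setting of the counting was not given in the sources used here.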

Additional observations from a re-analysis of the deposited data

Results flagged for a closer look

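In the Pkd1 model the KO effect differed between P7 and P1 for 6 of the 9 tested genes, as a test of the difference itself in edgeR. The difference, P7 minus P1 on the log2 scale, was 1.44 ± 0.29 (SE) for Acta2 (adjusted p = 0.00933), 2.12 ± 0.32 for Tagln (adjusted p = 0.00186) and 3.44 ± 0.90 for Cnn1 (adjusted p = 0.0294). It was 0.77 ± 0.21 for Des (adjusted p = 0.0312), 0.83 ± 0.23 for Myl9 (adjusted p = 0.0361) and 1.63 ± 0.23 for Pdlim7 (adjusted p = 0.000992). All 3 P7 KO libraries lay above all 3 WT libraries for each of these genes, while at P1 KO and WT overlapped for each. Y-linked counts were present in 0 of 3 KO and 2 of 3 WT libraries at P1 and in 3 of 3 KO and 0 of 3 WT libraries at P7. With their presence as a covariate 0 of the 6 were called, as was none of all transcripts (0%). Sex and genotype cannot be told apart among the Pkd1 libraries of P7.

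In the Pkd2 model the KO effect differed between P7 and P1 for Csrp1 by 0.87 ± 0.19 (adjusted p = 0.0314 in edgeR's test) and for Pdlim7 by 0.82 ± 0.11 (adjusted p = 0.00147). The covariate of Y-linked counts left Pdlim7 called (adjusted p = 0.00568), while Csrp1 was not called with it (adjusted p = 0.092), nor with the replicate number as a block (adjusted p = 0.0603).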

How the results depend on the processing

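The 18 log2 fold changes at P7 were recomputed under 270 alternatives. Of these 243 kept the direction and the side of the threshold, 27 kept the direction and lost the call, and 0 reversed. The 14 counts of called genes had 220 alternatives, of which 186 were within 1.5 times the reported count.

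With all 18 Pkd1 libraries and Y-linked counts as a covariate the P7 count was 0 in place of 8, and with this covariate the Pkd1 count was 0 for WT P7 against P1 and 0 for the P7 effect against that at P1. In Pkd2 the P7 count was 8 in place of 9. The Pkd2 count was 1 for WT P7 against P1 and 1 for the P7 effect against that at P1. Over all transcripts these fits, in that order, called 0.0479%, 8.08% and 0% in Pkd1 and 12.2%, 24.9% and 0.902% in Pkd2. In Pkd1 the covariate is set apart from the groups only by the P1 WT libraries. DESeq2 and the exact test each called 1 gene, Pdlim7, in Pkd1 at P3, and DESeq2 called 1, Csrp1, for the difference between models. Over the fits that leave out 1 library, the count ran from 5 (without WT replicate 1) to 8 in Pkd1 at P7, from 7 to 9 in Pkd2 at P7, from 1 to 4 and from 0 to 2 for WT P7 against P1 in Pkd1 and Pkd2, from 3 to 6 and from 1 to 2 for P7 against P1 effects, and from 0 to 2 (without Pkd1 WT replicate 3) for the difference between models. Over both models at P7 it was 9 in every alternative. The cause of these shifts was not tested. Over all transcripts, leaving out 1 library moved the Pkd1 P7 count from 1686 to between 156 (without WT replicate 1) and 3191 (without WT replicate 3), and the Pkd2 P7 count from 1776 to between 667 (without WT replicate 1) and 2059. At P7 DESeq2 called 2763 in Pkd1, a 2-fold minimum 731 in Pkd1 and 336 in Pkd2, and the fit of all 18 libraries 3882 in Pkd1 and 1686 in Pkd2. With the 2-fold minimum 6 of the 9 genes were called in Pkd1 and 6 in Pkd2. The fit of all 18 libraries without a covariate called 8 of the 9 in Pkd1 and 7 in Pkd2, where Actg2 and Des were not called.

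A fit with the replicate number as a block gave 7 of 9 genes in Pkd1 at P7, without Des (adjusted p = 0.0627), and 704 of all transcripts. The labels do not say that same-numbered libraries share more than the number. In Pkd2 at P7 it gave 9 of 9 and 1515 of all. For the P7 effect against P1 in Pkd2 the block gave 1 gene, Pdlim7. The correlations of same-numbered KO and WT libraries outside Pkd1 P1 ran from -0.215 to 0.169. The median log2 difference of all transcripts ran from -0.042 to 0.006 over the 6 comparisons scaled by TMM, RLE or library size alone. Myh11, Myocd and Mrtfb had highest counts of 5, 4 and 4 in a library, and each has several identifiers. What sets these low counts was not tested.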
